A study of Mus musculus with 3 samples.

Results

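The forkhead, SOX, ETS and GATA families of transcription factors were described in 3 polyadenylated RNA libraries of brain microvascular fragments, the short pieces of small vessel left when brain is broken up mechanically and with enzymes. Members were taken by gene symbol, with the numbered members of the forkhead (Fox), SOX, ETS and GATA families together with Tal1, Lyl1 and Lmo2, which encode partners of GATA factors. This gave 96 genes of the 56941 in the count table: 45 forkhead, 19 SOX, 23 ETS and 6 GATA genes and the 3 partner genes. The libraries were made from 400 ng of total RNA of adult wild-type C57BL/6J mice, 1 library for each of 3 mice, and form a single group with no treatment and no control beside it. No sex, exact age or batch is known, and the fragments hold every cell that stays attached to the vessel. The members were assigned to 10 role groups from textbook knowledge, and those that fitted none were counted as other. Earlier results of these data were known when the groups were chosen.

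These families control which genes of a cell lineage are read. ETS factors bind a GGAA core that occurs in nearly all known endothelial enhancers, forkhead factors often bind beside them, and SOX factors bend DNA through a high-mobility-group domain. GATA factors work in blood and vessels in a complex in which LMO2 bridges them to the helix-loop-helix factors TAL1 and LYL1. In brain vessels, ERG and FLI1 hold the endothelial identity, SOX17, SOX18 and SOX7 act in vessel growth and arterial fate, and FOXF2, FOXQ1 and FOXC1 are known from the blood-brain barrier and the mural cells around it.

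Depth was 128428355, 136672205 and 150449539 counts in replicates 1, 2 and 3, and detection meant reaching 1 CPM (counts scaled to library size) in each of the libraries. Endothelial markers summed to between 13106 and 16302 CPM per library with 8 of 8 detected, so the defining genes of the labelled vessel origin were present. Pericyte markers (6 of 6 detected, 3464 to 3672.5 CPM) and smooth muscle markers (5 of 5, 4586 to 5268 CPM) were present too. The smooth muscle sum came nearly all from Acta2, Myh11 and Myl9, with Cnn1 and Tagln at 47.4 and 10.9 CPM on average. Microglial markers were present as well (6 of 6, 4087 to 5512 CPM), as were astrocyte markers (6 of 6, 920.246 to 1708 CPM) and choroid plexus and ependymal markers (6 of 6, 5011 to 8113 CPM). Fibroblast markers (6 of 6) summed to 710.008 to 841 CPM, most of it from Mgp alone (568, 597 and 714 CPM). Col1a2 averaged 100 CPM, and Dcn, Lum, Col1a1 and Pdgfra were low, at 11.5, 1.59, 9.82 and 6.08 CPM on average. Oligodendrocyte and neuronal markers were low, at 155 to 171 and 92.0 to 113 CPM. Replicate 1 stood apart by its erythroid markers, which summed to 1088, 133.9 and 62.5 CPM. Replicate 2 stood apart by its pituitary hormone markers, which summed to 20.7, 1435 and 18.2 CPM. Most of the sum in replicate 2 was Gh (1233 CPM). Of the 6 pituitary markers, 5 were highest in replicate 2, and Lhb was highest in replicate 1 (1.42, 1.22 and 0.964 CPM). In bulk RNA, fewer cells of a type and less RNA per cell cannot be told apart, so each level below is that of the whole fragment.

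Of the 96 members, 55 were detected, beside 23.2% of all genes in the table. That table holds 26428 genes with no count in any library, so shares and medians over all its genes are a low base. At 10 CPM or more in every library stood 44 members (16.1% of all genes), and at 100 CPM or more stood 17 (3.45% of all genes). Of the 23 vascular regulators, 22 were detected and 15 reached 100 CPM in every library. The other 2 genes at that level were Sox13 and Elf2, both counted as broadly expressed. All 17 broadly expressed members were detected. By contrast, 1 of the 27 members outside every role group was detected, the forkhead gene Foxd2 at 1.47, 1.52 and 1.73 CPM. No test was made of these shares, since genes are not replicates. The role groups were also not chosen blind to these data.

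The families held different shares of detected members, and this was not tested. Medians over all members, on the log2(CPM + 1) scale, were 5.37 ± 0.13 (SD of the 3 library medians) for ETS genes, 2.02 ± 0.32 for SOX genes, 1.36 ± 0.02 for forkhead genes and 0.35 ± 0.02 for GATA genes, beside 0.0066 over all genes in the table. The 3 partner genes had a median of 5.80 ± 0.17. Each median was taken over the members' means across libraries, so it can lie outside the library medians. For forkhead genes these were 1.30, 1.34 and 1.30 in replicates 1, 2 and 3. Detection followed the same order, with 17 of 23 ETS, 10 of 19 SOX, 23 of 45 forkhead, 2 of 6 GATA and 3 of 3 partner genes. This order holds for all members and not for the detected members alone, whose medians were 6.09 for forkhead, 6.03 for ETS, 5.80 for partner, 5.07 for GATA and 4.63 for SOX genes. Per kb of exonic length, the scale on which genes can be compared, the median levels were 8.29 CPM per kb for ETS, 0.765 for SOX, 0.464 for forkhead, 0.0787 for GATA and 30.4 for the partner genes. The vascular regulators, drawn from all families, had a median of 34.3 CPM per kb and broadly expressed members 9.77 CPM per kb. On the log2(CPM + 1) scale the vascular regulators had 7.30 ± 0.07. Broadly expressed members had 5.95 ± 0.08 and the 2 mural and fibroblast members 3.90 ± 0.12, whereas astrocyte and neural progenitor members had 0.99 ± 0.20, neuronal members 0.65 ± 0.06 and blood or immune members 1.23 ± 0.16.

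**Figure D1:**
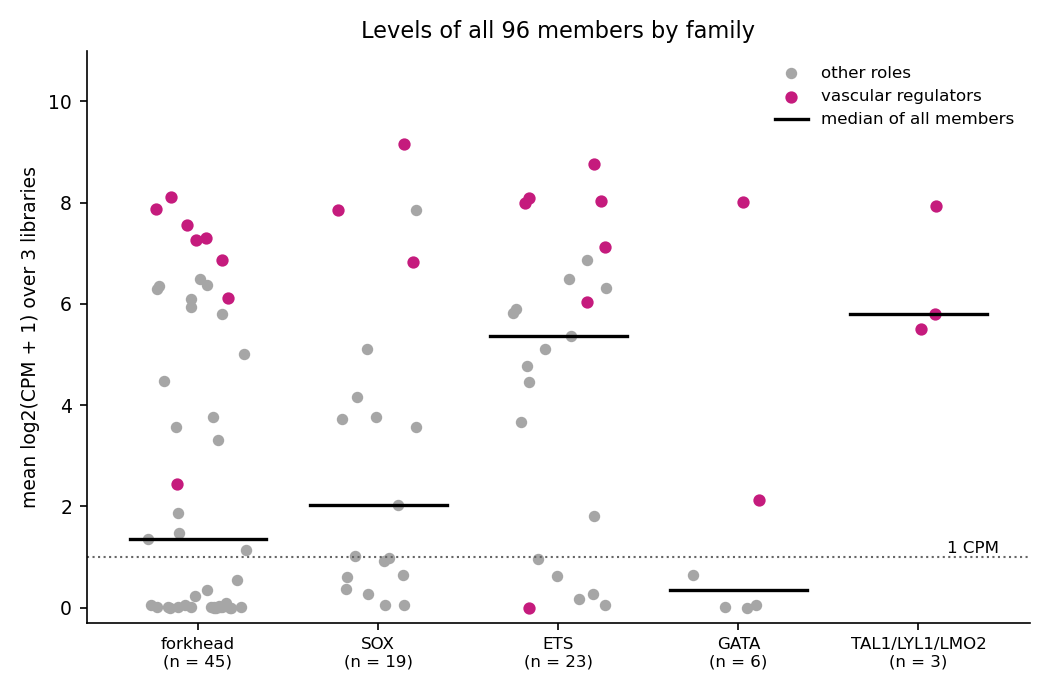
Mean log2(CPM + 1) over 3 libraries (vertical axis) of each of the 96 members by family, with vascular regulators in magenta, all other roles in grey and a bar at the family median. The 22 detected vascular regulators lie above the dotted line at 1 CPM, the magenta point at 0 is Etv2, and the ETS median of 5.37 lies above those of SOX (2.02), forkhead (1.36) and GATA (0.35) genes, an order that differs among detected members alone.

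Levels of different genes were compared as CPM per kb of exonic length, for the 95 members with a length. Sox18 stood first at 356 ± 50.7 CPM per kb (SD, n = 3), which was rank 84 among the 12814 detected genes with a length. Lmo2 followed at 112 ± 14.1, Foxf2 at 99.1 ± 12.2, Erg at 75.2 ± 5.17, Elk3 at 59.6 ± 3.07 and Foxq1 at 57.1 ± 7.56 CPM per kb. The order below Foxf2 depended on the length used, and the SDs do not hold the error of the length. The ranges over the 3 libraries of Sox18 and Lmo2 did not overlap, nor did those of Foxf2 and Erg or of Erg and Elk3. From Elk3 down through Foxq1, Sox13, Ets1, Sox17, Gata2, Ets2, Fli1, Sox7, Lyl1, Foxf1 and Foxc1, each gene overlapped in range with the next. Ranges were compared without pairing the values by library, so an overlap does not exclude a steady order within the libraries. Over all 54 pairs of neighbours among the detected members, 42 overlapped.

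**Figure D2:**
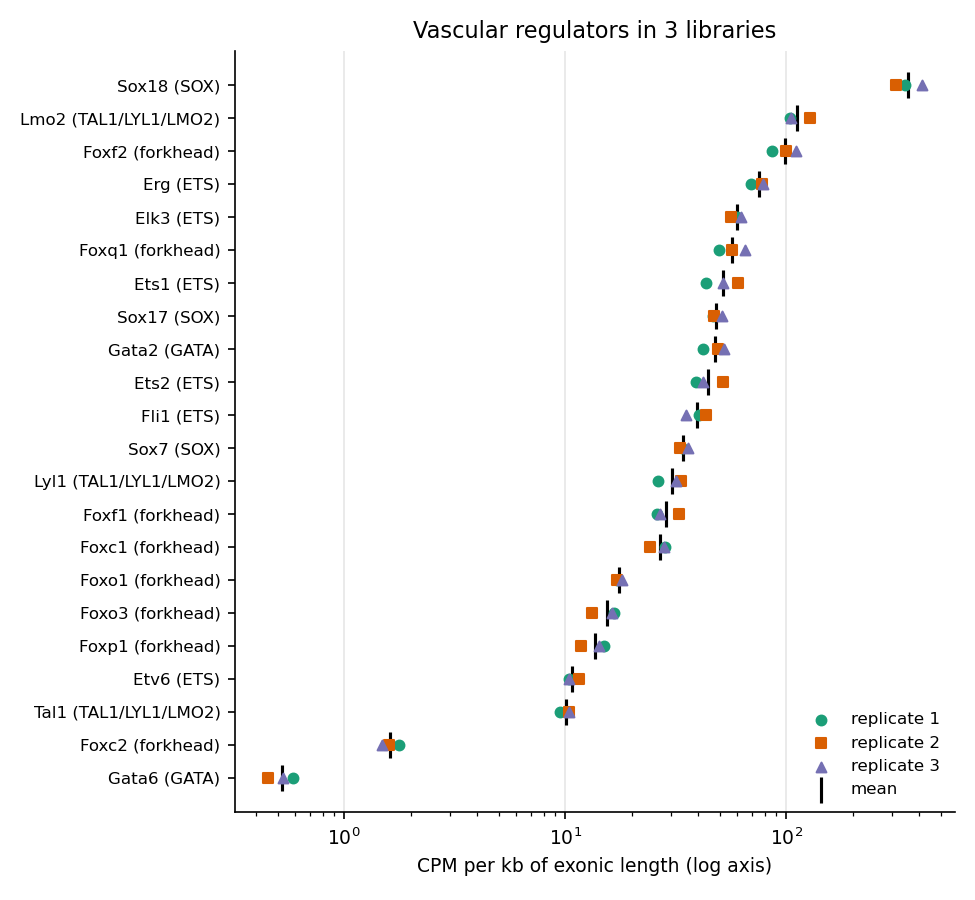
CPM per kb of exonic length (log axis) of 22 vascular regulators in the libraries of replicates 1, 2 and 3, with the mean as a bar. Sox18 (356 CPM per kb) stands apart at the top and Foxc2 (1.62) and Gata6 (0.520) at the bottom, while neighbouring genes in the middle overlap. Etv2, which had no count in any library, is not drawn.

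Sox18, Sox17 and Sox7 form the SoxF group, which acts in endothelial differentiation, and all 3 were abundant. Sox18 had 557, 507 and 668 CPM in replicates 1, 2 and 3, Sox17 had 223, 224 and 245 CPM, and Sox7 had 111, 109 and 118 CPM. Sox18 was highest in each library and its range did not meet those of the other two. Within a library, the ratio of Sox18 to Sox17 in CPM per kb was 7.35 ± 0.69 (SD, n = 3) and that of Sox18 to Sox7 was 10.4 ± 1.03. The ratio of Sox17 to Sox7 varied little between libraries, at 1.39, 1.42 and 1.43. Both ratios with Sox17 depended on the length used. Per kb of the longest coding transcript, Sox18 to Sox17 was 4.99 and Sox17 to Sox7 was 2.08. Sox18 alone held 70.6%, 66.6% and 71.6% of the summed CPM per kb of the SOX family. An exon of a noncoding gene on the other strand lies over 16.8% of the exonic length of Sox17, and the strand setting of the counting is not given in the sources used here.

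Sox13, a SoxD gene expressed in many tissues, was the other abundant SOX gene, with 188, 253 and 260.253 CPM. Its value in replicate 1 lay below both others. The 2 further SoxD genes were far lower, with Sox5 at 13.2, 9.73 and 10.1 CPM and Sox6 at 19.3, 14.7 and 16.9 CPM. Per kb, Sox13 exceeded Sox6 by 33.4, 59.3 and 53.0 times in the 3 libraries. Sox4, a widely expressed SoxC gene, had 35.7, 30.8 and 34.3 CPM, and 54.6% of its exonic length lies under a noncoding gene on the other strand, so its level is uncertain.

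The ETS genes with known endothelial functions were all present apart from Etv2, the factor that starts the endothelial programme in the embryo. Erg had 240.05, 269 and 273 CPM, and its relative Fli1, which is also read in microglia and blood cells, had 140.176, 150.83 and 123 CPM. Per kb, the lowest Erg value was above the highest Fli1 value, and the ratio of Erg to Fli1 was 1.72, 1.79 and 2.23. Ets1, a factor of sprouting endothelium, had 369, 512 and 438 CPM, and Ets2 had 227, 300.394 and 243 CPM. Both were highest in replicate 2 and lowest in replicate 1, and their ratio per kb was 1.11, 1.16 and 1.23. Elk3, a ternary complex factor that acts with serum response factor, had 271, 257 and 285 CPM. Per kb it stood 4.84 ± 0.48 times above Elk4 (82.6, 80.4 and 74.4 CPM) and 15.3 ± 1.61 times above Elk1 (19.0, 22.3 and 21.9 CPM), its 2 relatives of broad expression. Etv6, an ETS repressor needed for vessel maintenance, had 62.1, 68.8 and 62.5 CPM. Etv2 had no count in any library, which allows up to 0.0234, 0.0220 and 0.0199 CPM (3 counts of each library total, counting error only).

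Broadly expressed ETS genes filled the range below. Elf2 had 108, 117 and 123 CPM, Elf1 had 85.8, 92.0 and 88.5 CPM, Etv3 had 55.1, 54.8 and 65.5 CPM, and Gabpa, which controls many mitochondrial and housekeeping genes, had 58.3, 48.9 and 59.6 CPM. Elf1 and Elf2 had small spreads over the mice, with coefficients of variation of 3.48% and 6.82%. Epithelial members were under the detection limit, with Ehf at 0.539, Elf3 at 0.210 and Elf5 at 0.134 CPM on average.

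Of the 45 forkhead genes, 22 were under the detection limit, and 5 of these had no count. The detected share was 51.1%, beside 52.6% of SOX genes and 23.2% of all genes. Several forkhead genes were among the most abundant members. Foxq1, known for its enrichment in brain endothelium, had 241, 275 and 314 CPM, and Foxf2, a gene of brain endothelium and pericytes whose loss opens the barrier, had 204, 237 and 262 CPM. Both were lowest in replicate 1 and highest in replicate 3, and their ratio per kb was the steadiest among the pairs examined apart from Sox17 to Sox7 (Foxq1 to Foxf2: 0.576, 0.566 and 0.586). Foxq1 carries a limit of its own, because 66.1% of its exonic length lies under a coding gene on the other strand. Foxc1, a gene of mural cells and meninges as well as endothelium, had 165, 141 and 164 CPM. Its relative Foxc2, best known from lymphatic valves, had 4.84, 4.32 and 4.06 CPM, and per kb Foxc1 was 16.6 ± 1.93 times higher. Foxf1, the FOXF factor of lung endothelium, had 62.6, 78.9 and 64.9 CPM, and Foxf2 was 3.51 ± 0.55 times higher per kb.

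FOXO factors, which insulin and growth factor signals keep out of the nucleus, were present at 10 CPM or more apart from 1. Foxo1, which restrains endothelial growth, had 149, 149 and 157 CPM, Foxo3 had 126, 99.9 and 124 CPM, and Foxo4 had 70.9, 78.8 and 83.6 CPM. Per kb, the ratio of Foxo1 to Foxo3 was 1.03, 1.31 and 1.10. The fourth, Foxo6, a gene of neurons, had 0.922, 1.29 and 1.47 CPM and was not detected by the limit. Foxp1, a broadly acting repressor that is also read in endothelium, had 205, 162 and 195 CPM. Its relative Foxp4 had 11.6, 13.7 and 12.4 CPM, and Foxp1 was 5.40 ± 1.05 times higher per kb. Foxp2, a gene of neurons, had 2.28, 1.70 and 1.41 CPM. Among broadly expressed forkhead genes, Foxk1 had 88.2, 82.1 and 98.3 CPM, Foxn3 had 92.6, 79.4 and 74.5 CPM and Foxk2 had 80.1, 79.9 and 83.0 CPM. Foxm1, a factor of dividing cells, had 2.56, 2.41 and 2.94 CPM.

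**Figure D3:**
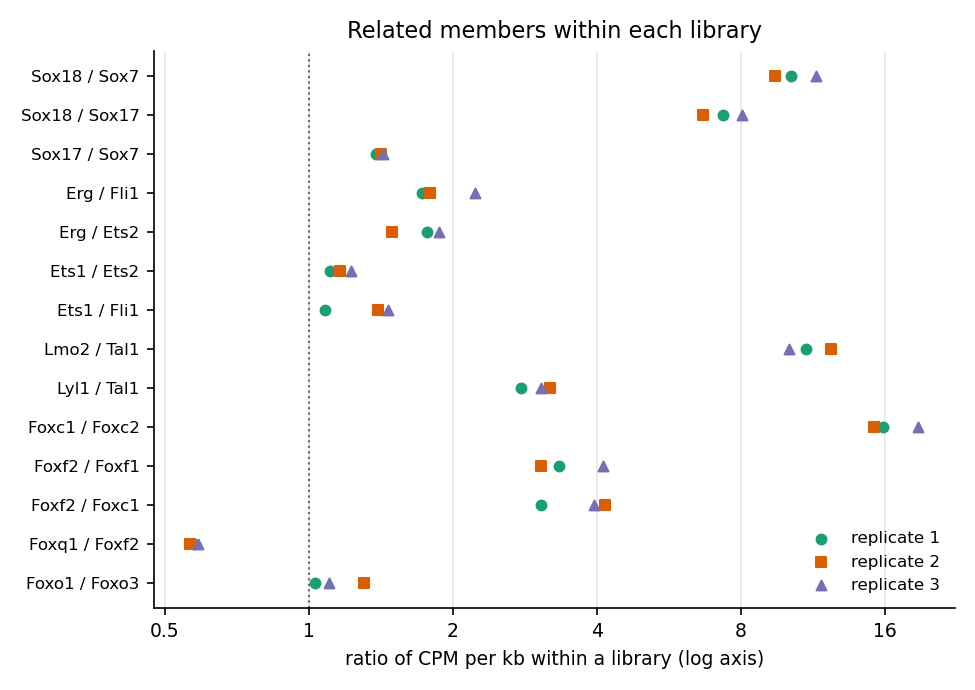
Ratio of CPM per kb between related or interacting members (log axis) within the libraries of replicates 1, 2 and 3, with a dotted line at equal levels. The Sox18 to Sox7 ratio lies between 9.44 and 11.5 and the Foxc1 to Foxc2 ratio between 15.2 and 18.8, whereas Ets1 to Ets2 (1.11 to 1.23) and Foxo1 to Foxo3 (1.03 to 1.31) lie close to 1.

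Foxl2, a forkhead gene of pituitary and ovary, was listed here as a pituitary gene, although background knowledge also places it among the factors enriched in brain endothelium. Foxl2 had 66.8, 60.7 and 74.4 CPM, lowest in replicate 2, the library in which pituitary markers summed to 1435 CPM against 20.7 and 18.2 CPM. Of the 6 pituitary markers, Pomc alone was detected in every library. Foxl2os, a noncoding gene that overlaps 0.369% of the exonic length of Foxl2 on the other strand, had 4.84, 4.39 and 5.17 CPM.

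Gata2 was the single abundant GATA gene. It had 227, 265 and 282 CPM and held 98.2%, 98.8% and 98.7% of the summed CPM per kb of its family. Gata6, a gene of smooth muscle and endothelium outside the brain, had 3.80, 2.93 and 3.42 CPM, and Gata3 was under the limit at 0.561, 0.551 and 0.572 CPM. Of the heart and gut genes, Gata4 had 1, 1 and 0 counts and Gata5 had no count. The erythroid factor Gata1 had 9, 5 and 2 counts in replicates 1, 2 and 3. All 5 erythroid markers were detected and their sum was ordered alike (1088, 133.9 and 62.5 CPM), and their part in the Gata1 counts was not tested.

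The 3 partner genes of GATA factors were all present. Lmo2 had 225, 279 and 227 CPM, Lyl1 had 47.5, 59.9 and 57.0 CPM, and Tal1 had 41.5, 45.7 and 45.4 CPM. Each was lowest in replicate 1 and highest in replicate 2. Per kb, Lmo2 exceeded Tal1 by 11.1 ± 1.12 times and Lyl1 exceeded Tal1 by 3.01 ± 0.21 times. By the longest coding transcript these ratios were 13.6 and 2.90. Of 10 further genes of the complex, 9 were detected. The E-protein gene Tcf4 had 282 ± 18.5 CPM, Tcf12 had 153 ± 5.97 CPM and Tcf3 had 117 ± 34.4 CPM, the bridging gene Ldb1 had 92.6 ± 7.80 CPM, the corepressor gene Cbfa2t3 had 135 ± 18.3 CPM and the FOG factor gene Zfpm1 had 93.7 ± 18.3 CPM. The FOG factor gene Zfpm2 lay at the limit, at 0.968, 1.00 and 0.999 CPM.

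Promoter windows show what is known of the sequence before these genes. RefSeq windows (build GRCm38.p6, another build than the GRCm39 of the counts) were matched by symbol for 65 members, 87 windows in all. The 250 bases before each start were searched on both strands for an ETS motif (CCGGAA), a FOX motif (GTAAACA), a SOX motif (ACAATG) and a GATA motif (AGATAA). For the vascular regulators, windows on a single chromosome were left out, which was not done for the shares below. The remaining windows covered 13 of the 23 vascular regulators, and 5 of these 19 windows held a match. They are shown for that reason, with the match in capitals. Each is printed 5′ to 3′ on the strand of the gene.
Erg, chr16:95459349-95459598, minus strand: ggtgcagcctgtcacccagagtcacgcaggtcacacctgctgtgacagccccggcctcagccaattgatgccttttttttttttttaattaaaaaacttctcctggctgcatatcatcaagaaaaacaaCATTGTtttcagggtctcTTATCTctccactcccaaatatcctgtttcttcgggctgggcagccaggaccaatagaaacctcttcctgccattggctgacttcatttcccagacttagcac
Foxc1, chr13:31806396-31806645, plus strand: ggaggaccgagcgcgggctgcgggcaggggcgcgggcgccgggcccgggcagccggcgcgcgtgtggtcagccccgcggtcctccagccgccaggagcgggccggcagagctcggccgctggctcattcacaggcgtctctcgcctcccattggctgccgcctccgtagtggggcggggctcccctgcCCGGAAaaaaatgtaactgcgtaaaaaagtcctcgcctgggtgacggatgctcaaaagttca
Foxp1, chr6:99028299-99028548, minus strand: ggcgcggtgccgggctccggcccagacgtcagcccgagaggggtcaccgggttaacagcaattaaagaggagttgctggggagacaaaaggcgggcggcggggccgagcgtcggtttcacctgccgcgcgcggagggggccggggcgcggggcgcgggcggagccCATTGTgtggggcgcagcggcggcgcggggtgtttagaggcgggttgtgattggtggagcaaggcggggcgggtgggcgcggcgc
Lyl1, chr8:84701207-84701456, plus strand: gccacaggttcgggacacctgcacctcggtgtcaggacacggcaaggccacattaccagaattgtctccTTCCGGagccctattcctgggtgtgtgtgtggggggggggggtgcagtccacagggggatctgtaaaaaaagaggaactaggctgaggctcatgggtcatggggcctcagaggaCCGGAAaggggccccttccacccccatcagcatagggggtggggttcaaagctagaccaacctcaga
Tal1, chr4:115056176-115056425, plus strand: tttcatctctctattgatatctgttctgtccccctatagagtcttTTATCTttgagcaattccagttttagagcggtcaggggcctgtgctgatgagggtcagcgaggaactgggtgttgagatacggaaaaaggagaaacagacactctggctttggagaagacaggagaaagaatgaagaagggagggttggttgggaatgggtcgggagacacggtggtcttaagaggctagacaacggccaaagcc

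The Erg window is 1 of 3 starts of that gene and holds a SOX match that begins 121 bases before the start and a GATA match at 103 bases, both on the reverse strand. The Foxc1 window holds an ETS match at 62 bases and the Foxp1 window, 1 of 3 starts, a SOX match on the reverse strand at 85 bases. In the Lyl1 window, ETS matches begin 67 bases (forward) and 181 bases (reverse) before the start. The first of the 2 Tal1 starts has a GATA match on the reverse strand at 205 bases. Shares of windows with a match were set beside those of all promoters, for each motif alone. The share of all promoters with a match to any of the motifs was not taken. The 5 of 19 windows of vascular regulators therefore have no base, and cannot be read as more or fewer than elsewhere. The ETS motif was in 9.26% of the 54 windows of detected members and in 12.03% of all 32851 windows, the FOX motif in 3.70% and 3.17%, the SOX motif in 9.26% and 10.7% and the GATA motif in 5.56% and 9.99%. These are matches of letters in a short window and say nothing of binding. The windows of detected members had a median GC content of 62.4%, those of members under the limit 60%, and all windows 52.4%.

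Several abundant members are neighbours in the genome, by the order of coding genes in RefSeq (GRCm38.p6, 95 members found). Foxq1, Foxf2 and Foxc1 follow each other on chromosome 13 with no coding gene between them, and all 3 were above 100 CPM in every library. Erg and Ets2 are neighbours on chromosome 16 and Fli1 and Ets1 on chromosome 9, and these 4 were above 100 CPM as well. Neighbours did not always share a level. On chromosome 8, Foxf1 (28.5 CPM per kb) is followed after 1 coding gene by Foxc2 (1.62 CPM per kb) and then Foxl1 (0.105 CPM per kb). On chromosome 2, the neighbours Ehf and Elf5 were both under the limit.

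Members that mark other cells of the brain were mostly low. Spi1, which encodes PU.1, the master regulator of microglia, had 41.3, 36.6 and 43.8 CPM. It was lowest in replicate 2, as was each of the 6 microglial markers (sum 5512, 4087 and 4868 CPM, none at 0). Erg exceeded Spi1 by 5.03 ± 0.62 times per kb. Sox9, the astrocyte factor, had 14.5, 13.7 and 9.96 CPM and Sox2, a factor of neural stem cells and astrocytes, had 2.79, 4.21 and 2.40 CPM. Both were lowest in replicate 3, whereas Etv5, the most abundant of the 7 astrocyte and neural progenitor members, was highest there (35.4, 25.5 and 41.2 CPM). The 6 astrocyte markers, none at 0, summed to 1570, 1708 and 920.246 CPM, and 5 of them were lowest in replicate 3. Most of that sum is the glutamate transporter gene Slc1a2 (1210, 1303 and 627 CPM), and the gap junction gene Gja1 was not lowest in replicate 3 (75.2, 80.9 and 77.3 CPM). Foxj1, which drives motile cilia in ependyma and choroid plexus, had 11.2, 11.7 and 9.78 CPM. The 6 choroid plexus and ependymal markers, none at 0, summed to 6798, 8113 and 5011 CPM, nearly all of it the choroid plexus gene Ttr (6329, 7759 and 4759 CPM). The markers of ciliated ependyma did not share the order of Foxj1, since Ccdc153 (2.94, 2.05 and 3.52 CPM) and Tmem212 (1.81, 1.39 and 2.25 CPM) were lowest in replicate 2 and highest in replicate 3. The part of these cell types in the values was not tested.

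Sox10, the defining factor of oligodendrocytes, was under the limit at 0.476, 0.672 and 0.420 CPM, while 5 of 6 oligodendrocyte markers were detected and none was at 0. The mural gene Foxs1 had 17.7, 23.3 and 23.3 CPM and Foxd1, a gene of pericyte precursors and stroma, had 8.83, 9.18 and 8.80 CPM. Among neuronal members, Etv1 had 14.1, 10.1 and 10.97 CPM, whereas Sox11, a gene of immature neurons, had 0.576, 0.601 and 0.517 CPM. Of the blood and immune members besides Spi1, Elf4 had 29.0, 22.8 and 27.1 CPM, Spib had 2.55, 1.82 and 3.35 CPM, and Foxp3, the factor of regulatory T cells, had 7, 4 and 6 counts.

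The 41 members under the limit comprised 22 forkhead, 9 SOX, 6 ETS and 4 GATA genes. Of these, 26 belong to no role group and act mainly in endoderm, germ line, thymus or other tissues. Examples are the endodermal genes Foxa1 (33, 23 and 12 counts), Foxa2 (0, 0 and 3 counts) and Foxa3 (0, 1 and 9 counts) and the thymic gene Foxn1, which had no count. In all, 7 members had no count in any library: Etv2, Foxb2, Foxi2, Foxi3, Foxn1, Foxn4 and Gata5. Close to the limit, Sox8 had 0.999, 1.65 and 0.586 CPM, Sox1 had 1.12, 1.21 and 0.661 CPM, and Etv4 had 0.884, 1.22 and 0.730 CPM, each with values on both sides of 1 CPM.

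The spread between mice was described by the coefficient of variation. The median coefficient of variation over the 3 libraries was 10.2% for the 55 detected members and 9.59% for all 13211 detected genes. Sox2 (30.5%), Spib (29.8%) and Foxp2 (24.8%) had the highest values among detected members, all at low levels, and Foxk2 (2.14%), Foxj3 (2.22%) and Foxd1 (2.34%) the lowest. An edgeR quasi-likelihood fit to 18087 genes tested whether the dispersion of a gene exceeded the trend, and 15 genes passed an adjusted p of 0.05 (0.0829%). None of the 70 members tested was among them, and 3 had an unadjusted p under 0.05, beside 5.18% of all genes. These were Etv5 at 35.4, 25.5 and 41.2 CPM (edgeR adjusted p = 0.930), Elf3 at 20, 54 and 13 counts (edgeR adjusted p = 0.930) and Sox8 (edgeR adjusted p = 0.957). DESeq2 marked 112 of the 18087 genes as dispersion outliers and none of the 70 members. With so few calls over all genes, a count of 0 among 70 members is near the share of all genes. With 3 mice, the count of 0 does not show that the levels are equal.

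**Figure D4:**
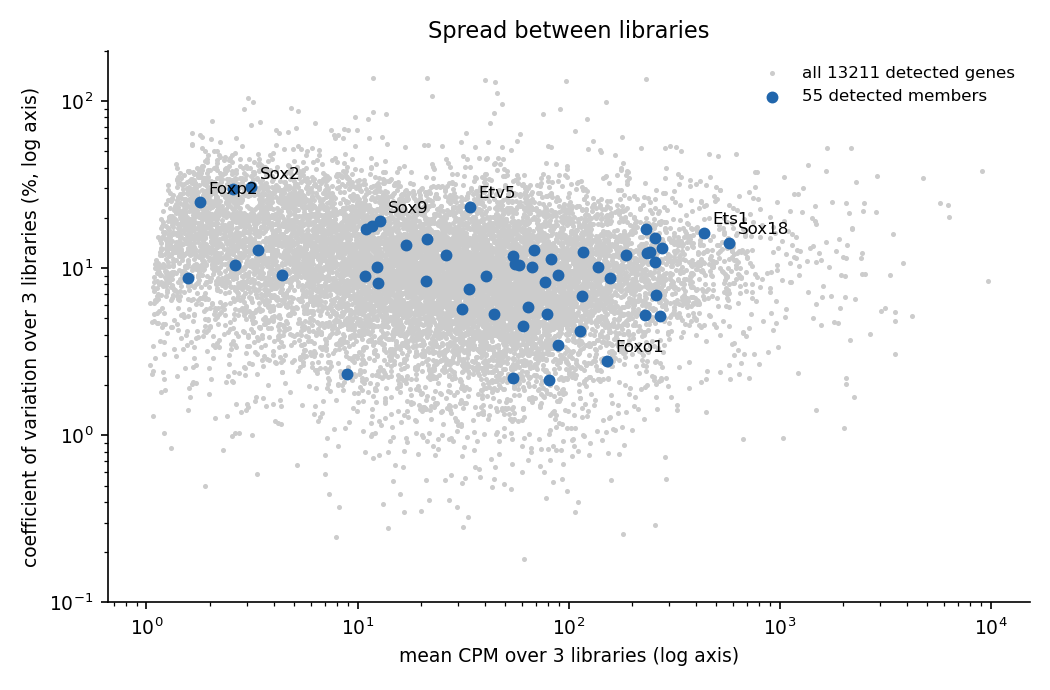
Coefficient of variation over 3 libraries in percent against mean CPM (both log axes), for all 13211 detected genes in grey and the 55 detected members in blue. The members lie within the cloud of all genes, with Sox2 at 30.5% as the highest and Foxk2 at 2.14% as the lowest of the blue points.

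The library with the highest value was counted for each member. Of the 55 detected members, 16 were highest in replicate 1 (34.5% of all detected genes were), 16 in replicate 2 (28.7%) and 23 in replicate 3 (36.8%). This split moves with the scaling: by library totals alone, 17, 22 and 16 members were highest in replicates 1, 2 and 3, and by DESeq2 size factors 14, 15 and 26. The detected vascular regulators deviated from their own means by -0.05, 0.01 and 0.04 on the log2 scale in the 3 libraries, and 13 of 22 were lowest in replicate 1, beside 22 of the 55 detected members and 38.6% of all detected genes. The endothelial markers deviated by -0.17, 0.05 and 0.12. The part of endothelial content in the shift of the regulators was not tested.

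Genes around these factors were read from lists as well. The 16 endothelial genes known to carry ETS or FOX-ETS elements were all detected and all at 100 CPM or more, with a median of 9.80 ± 0.14 on the log2(CPM + 1) scale. The receptor gene Flt1 had 3852 ± 412 CPM, the junction gene Cdh5 had 1068 ± 60.9 CPM, Tie1 had 897 ± 68.5 CPM, Icam2 had 284 ± 19.98 CPM and Mef2c, a muscle and vessel factor, had 144 ± 26.2 CPM. Their mean deviations were -0.14, -0.03 and 0.17 in replicates 1, 2 and 3. None of the 16 was called by the edgeR dispersion test at an adjusted p of 0.05, beside 0.0829% of all genes tested. By the same test 1 had an unadjusted p under 0.05, beside 5.18% of all genes tested.

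Of 21 other regulators of endothelial transcription, 20 were detected, with a median of 18.0 CPM per kb, beside 34.3 CPM per kb for the vascular regulators among the members. The hypoxia factor gene Epas1 had 3157 ± 182 CPM, the flow-responsive genes Klf2 and Klf4 had 1293 ± 391 and 419.528 ± 59.1 CPM, and the Wnt effector gene Lef1 had 191 ± 9.52 CPM. Ppard (141 ± 19.6 CPM), which is listed with Foxf2, Foxl2, Foxq1 and Lef1 among factors enriched in brain endothelium, was also present. Prox1, the lymphatic factor gene, had 3.14, 2.26 and 2.20 CPM and Meox2 was under the limit at 0.313 ± 0.125 CPM. None of the 21 was called by the edgeR dispersion test (0.0829% of all genes tested were), and 2 had an unadjusted p under 0.05 (5.18%). Among the 10 further genes of the GATA complex, none was called by that test, beside 0.0829% of all genes tested. By the same test 2 had an unadjusted p under 0.05, beside 5.18% of all genes tested. Of 5 relatives outside the symbol rule, the ETS repressor gene Erf (96.3 ± 9.51 CPM) and the GATA-like gene Trps1 (15.1 ± 2.71 CPM) were detected, and Spic, Spdef and Sry were not.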

How the data were processed

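The authors deposited raw counts of reads per gene in 1 table of 3 libraries (paired reads of 150 bp, 1 mouse each on the series' design text). Build GRCm39, featureCounts and Subread 1.4.6-p5 are named, per the submitters' processing notes. How reads were aligned, which annotation was counted, whether strand was used and how reads with several positions were treated is not given in the sources used here.

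CPM were computed with TMM factors of 1.01, 1.02 and 0.965 (edgeR 4.0.16, R 4.3.3). Detection asked for 1 CPM in every library, and list medians used log2(CPM + 1). Lengths and exon overlaps came from GENCODE M21 (GRCm38), matched by symbol for 95 members, and are approximate for the build of the counts. An intercept-only quasi-likelihood fit in edgeR, over the 18087 genes kept by filterByExpr, compared each gene's quasi-dispersion with the trended prior (upper-tail F test, Benjamini-Hochberg). The procedure was tested on simulated data. DESeq2 1.42.0 gave alternative size factors and dispersion outliers. A single group allows no contrast. Named members were all vascular regulators, 7 genes that mark other cells, the 5 highest of each family and the 3 with the largest coefficient of variation. Further members were named by role after their values were seen. The members, role groups and lists were chosen with earlier results of these data known. Promoter sequences are from RefSeq (GRCm38.p6). Tables and figures used Python 3.11.15, numpy 2.4.6, pandas 2.3.3 and matplotlib 3.10.9. Some genes of the lists are not reported here by name.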

Additional observations from a re-analysis of the deposited data

How the results depend on the processing

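The number of detected members stayed between 52 and 62 under all alternatives (62 at 0.5 CPM, 52 at 2 CPM, 55 with DESeq2 size factors or library totals, 55 to 56 without single replicates). No member was called as varying between mice under any of the 7 alternatives. The lowest adjusted p was 0.499 (edgeR, Foxa1, without replicate 2). Calls over all genes ran from 0 of 18087 (robust prior) to 173 of 30513 (no filter), against 15 of 18087. Without replicates 1, 2 and 3 they were 7 of 18436, 80 of 18362 and 33 of 18482 genes. Under DESeq2 size factors the levels of the 55 detected members were 0.999 to 1.0004 times their values, and without single replicates 0.828 (Sox2) to 1.15 times (Spib). The family medians depended on the scale. Per kb of exonic length they were 0.55 (forkhead), 0.82 (SOX), 3.19 (ETS), 0.11 (GATA), 4.97 (partner genes) and 5.14 (vascular regulators), and per kb of the longest coding transcript, an alternative chosen after seeing the data, 0.60, 1.32, 3.58, 0.13, 4.97 and 5.14. With detected members alone they were 6.09, 4.63, 6.03, 5.07 and, for vascular regulators, 7.42, so that the forkhead median then lay above those of ETS and partner genes and the GATA median above that of SOX genes. A pseudocount of 0.5 gave 1.05 for forkhead and -0.40 for GATA genes. Without single replicates the forkhead median ran from 1.32 to 1.38 and that of the vascular regulators from 7.26 to 7.37. By the longest transcript, 9 of the 10 highest members per kb were shared, with Ets2 in place of Foxq1. Their order changed below Foxf2. Ets1 (86.5 CPM per kb) then stood above Erg (80.2), and Elk3 moved from place 5 to place 9. Several ratios between genes moved with the length by more than their SD over libraries. By the longest transcript, Sox18 to Sox17 was 4.99, Sox17 to Sox7 2.08 and Foxp1 to Foxp4 8.40. Elk3 to Elk4 was then 3.62 and Elk3 to Elk1 10.9. Lmo2 to Tal1 was 13.6, Ets1 to Ets2 1.31 and Sox13 to Sox6 33.2. Ets1 to Fli1 was 2.09 and Erg to Ets2 1.23. The ratios of Sox18 to Sox7 (10.4), Foxc1 to Foxc2 (16.6) and Foxf2 to Foxf1 (3.51) did not change. No paired analysis was possible because all samples form 1 group. Depth limits only the members near 0, where 3 counts correspond to 0.0199 to 0.0234 CPM.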
